A study of Homo sapiens with 12 samples.

Results

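The integrated stress response regulators examined here were the 10 genes ATF4, ATF3, ATF5, DDIT3, TRIB3, CHAC1, PPP1R15A, CEBPB, CEBPG and NUPR1. They were taken from the deposited gene count table by their symbols, and all 10 were found, each under 1 Ensembl identifier, among 36486 symbols. The set was named by function, and the rule that picks its members uses no measured value, although it was proposed with earlier results of these data known. Of the 10 genes, 7 encode transcription factors or cofactors that regulate transcription, while TRIB3 encodes a pseudokinase, CHAC1 a glutathione-degrading enzyme and PPP1R15A a phosphatase subunit.

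The integrated stress response begins when a stress-sensing kinase phosphorylates the translation initiation factor eIF2. Bulk protein synthesis then slows, while mRNAs with particular upstream reading frames, ATF4 among them, are translated more. ATF4 drives genes for amino acid supply, redox balance and further regulators such as DDIT3 (CHOP), TRIB3 and PPP1R15A (GADD34), and prolonged signalling through CHOP is associated with cell death. Only RNA was measured here, so the phosphorylation and translation steps of this response were not observed.

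The RNA-seq data came from 12 libraries of 2 human tumour lines. TOV-112D, a line of ovarian adenocarcinoma with p53-R175H, was given DMSO, UCI-1001 or its analog UCI-1014 for 3 h, with 2 libraries each. Saos-2, an osteosarcoma line without p53, gave 3 libraries labelled p53-null and 3 labelled p53-WT, where doxycycline-inducible wild-type p53 was introduced, and both carry a label of 16 h of induction. No dose is given in the labels, and no dose for the UCI-1014 libraries was found in the study's methods, so the doses of the compounds are not known to match. Whether the p53-WT line is 1 clone, and whether replicates were separate cultures, is not given in the sources used here.

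Gene counts summed to 17762027 to 20717898 per library in TOV-112D and to 19593655 to 24629558 in Saos-2. CDKN1A, a cell cycle inhibitor gene induced by p53, lay at 56.9 to 79.1 CPM (counts scaled to a common library size) in the p53-null libraries and at 7921 to 9039 CPM in the p53-WT libraries. Cell type markers departed in part from the labels in both lines. TOV-112D held no KRT18 count, and its 6 epithelial markers summed to at most 4.71 CPM. Leukocyte and endothelial markers summed to at most 3.67 CPM in all libraries. In Saos-2, the osteoblast markers RUNX2 at 4.16 to 12.1 CPM and SPP1 at 13.5 to 44.7 CPM were present, whereas SP7 was at 0 and ALPL stayed at or below 0.532 CPM, and the epithelial KRT18 lay at 402 to 559 CPM. The osteoblast markers together were higher in TOV-112D, where they summed to 58.2 to 63.5 CPM, than in Saos-2, at 26.2 to 50.5 CPM. COL1A1 lay at 48.2 to 48.5 CPM in TOV-112D with DMSO and at 0.397 to 1.84 CPM in Saos-2. RUNX2 was present in TOV-112D too, at 7.89 to 9.20 CPM with DMSO, while SPP1 stayed at or below 0.657 CPM there. Lines are therefore named here by their labels. The mitochondrial share of counts was 4.79 to 5.28% with DMSO, 3.79 to 3.86% with UCI-1001 and 3.18 to 3.57% with UCI-1014, and its part in the results was not tested. In both Saos-2 lines, replicate 1 stood apart: the chi-square of its gene counts against replicate 2, divided by its degrees of freedom, was 26.4 in p53-null and 41.3 in p53-WT cells, and that of replicate 2 against replicate 3 was 3.95 and 3.19. In these bulk libraries, a change in the share of responding cells and a change per cell cannot be told apart.

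To show what the regulatory DNA of these genes holds, the 500 bases before the annotated start of each gene's canonical transcript were searched on both strands. The letters sought were TGATGNAA, a C/EBP-ATF composite element of the kind bound by ATF4 or CHOP dimers, the cAMP response element TGACGTCA, and the AP-1 element TGANTCA. No letters of one match overlapped those of another in the stretches printed here. The composite element was present before 4 of the 10 genes, ATF3, DDIT3, CHAC1 and NUPR1, and in 4.75% of the same windows of 20007 genes. The stretches below, read 5′ to 3′ on the gene's strand in GRCh38, carry these matches in capitals, together with the cAMP response element of PPP1R15A.
ATF3, 203 to 196 bases before the start, chr1:212608547-212608576, plus strand: cctccccgaacTTGCATCAccagtgccccc
ATF3, 21 to 14 bases before the start, chr1:212608729-212608758, plus strand: tataaaaggggTGATGCAAcgctctccaag
DDIT3, 306 to 299 bases before the start, chr12:57520802-57520831, minus strand: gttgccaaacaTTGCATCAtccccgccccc
CHAC1, 209 to 202 bases before the start, chr15:40953251-40953280, plus strand: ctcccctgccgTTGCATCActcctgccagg
NUPR1, 91 to 84 bases before the start, chr16:28539047-28539076, minus strand: aaggggccagaTTGCATCAgacagggcctg
PPP1R15A, 58 to 51 bases before the start, chr19:48872352-48872381, plus strand: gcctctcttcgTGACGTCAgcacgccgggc
All 5 composite matches read TGATGCAA on one strand, with C at the free position. The cAMP response element occurred in 2.89% of all windows and, among the 10 genes, before PPP1R15A. The AP-1 element occurred in 9.74% of all windows and before ATF4, ATF5 and DDIT3. None of the 3 sets of letters was found before TRIB3, CEBPB or CEBPG in these windows. A shorter RefSeq window at another CEBPG start held a composite match 42 bases before it, and the share of 4.75% does not cover such windows. These matches describe sequence and say nothing about occupancy, and whether they relate to the changes described later was not tested.

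The first question was how the regulators responded to UCI-1001, a compound studied as a corrector of mutant p53, in cells with p53-R175H. Of the 10 genes, 8 were higher than with DMSO, ATF5 was lower and NUPR1 did not pass the test. The largest change was in ATF3, which encodes a stress-induced bZIP factor and rose 16.6-fold, followed by CHAC1 at 13.4-fold and DDIT3 at 10.7-fold. ATF4 itself rose 1.36-fold. Across all 14177 genes tested, 9.39% were higher and 6.36% lower at an adjusted p under 0.05 by edgeR's quasi-likelihood test with Benjamini-Hochberg adjustment. The median log2 fold change was 1.45 over the 10 regulators and 0.00 over all genes, and 6 regulators were called higher with a log2 fold change above 1, as were 1.18% of all genes.

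ATF4, the bZIP factor at the head of the transcriptional arm, was already abundant with DMSO, at 154 and 156 CPM. It reached 213 and 208 CPM with UCI-1001 and 348 and 347 CPM after UCI-1014. The 3 groups were separate and replicates nearly coincided. The log2 fold change over DMSO was 0.44 (SE 0.04, adjusted p = 1.7e-06) with UCI-1001 and 1.17 (SE 0.04, adjusted p = 5.4e-12) with UCI-1014. The first of these was no longer called, at an adjusted p of 0.0612, when all 12 libraries shared 1 fit. Most ATF4 reads were assigned to the transcript ATF4-202, at 91.2% of estimated counts with DMSO and 96.2% with UCI-1014. The longer ATF4-201 held 227 and 232 estimated counts with DMSO and 166 to 228 with UCI-1014.

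DDIT3 encodes CHOP, a bZIP partner of C/EBP proteins. It lay at 9.59 and 10.5 CPM with DMSO, at 90.9 and 123 CPM with UCI-1001 and at 298 and 253 CPM with UCI-1014. Its groups did not overlap, and the lower UCI-1001 library was far above both DMSO libraries. The log2 fold change was 3.42 (SE 0.15, adjusted p = 2.2e-09) with UCI-1001 and 4.78 (SE 0.14, adjusted p = 2.8e-12) with UCI-1014. By size of increase DDIT3 ranked 26 and 27 among 14177 genes. A predicted protein-coding locus, ENSG00000285133, overlaps DDIT3 on the same strand, and the genes MARS1 and MBD6 overlap it on the opposite strand. Reads shared by the loci rest on the authors' quantification.

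ATF3 was scarce with DMSO, at 1.75 and 1.41 CPM, or 34 and 26 counts. It reached 21.7 and 31.0 CPM with UCI-1001, and 93.2 and 75.3 CPM with UCI-1014. Every treated library exceeded both DMSO libraries, and the UCI-1014 libraries exceeded both UCI-1001 libraries. The log2 fold changes of 4.05 (SE 0.24, adjusted p = 4.5e-08) and 5.72 (SE 0.20, adjusted p = 1.8e-11) placed ATF3 at rank 14 and rank 18 of all genes. ATF5, a bZIP factor that is also under translational control by eIF2 phosphorylation, did not rise. It lay at 95.3 and 99.4 CPM with DMSO, 83.1 and 81.3 with UCI-1001, and 73.4 and 89.6 with UCI-1014. Its treated libraries were all below both DMSO libraries, with log2 fold changes of -0.24 (SE 0.07, adjusted p = 0.0302) and -0.25 (SE 0.07, adjusted p = 0.0093). This call was fragile. Leaving out any 1 of the DMSO or UCI-1001 libraries ended it for UCI-1001, at adjusted p from 0.061 to 0.222, and leaving out UCI-1014 replicate 1 gave -0.11 (adjusted p = 0.154) for UCI-1014. Leaving out DMSO replicate 2 gave -0.22 (adjusted p = 0.0890) for UCI-1014.

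**Figure D1:**
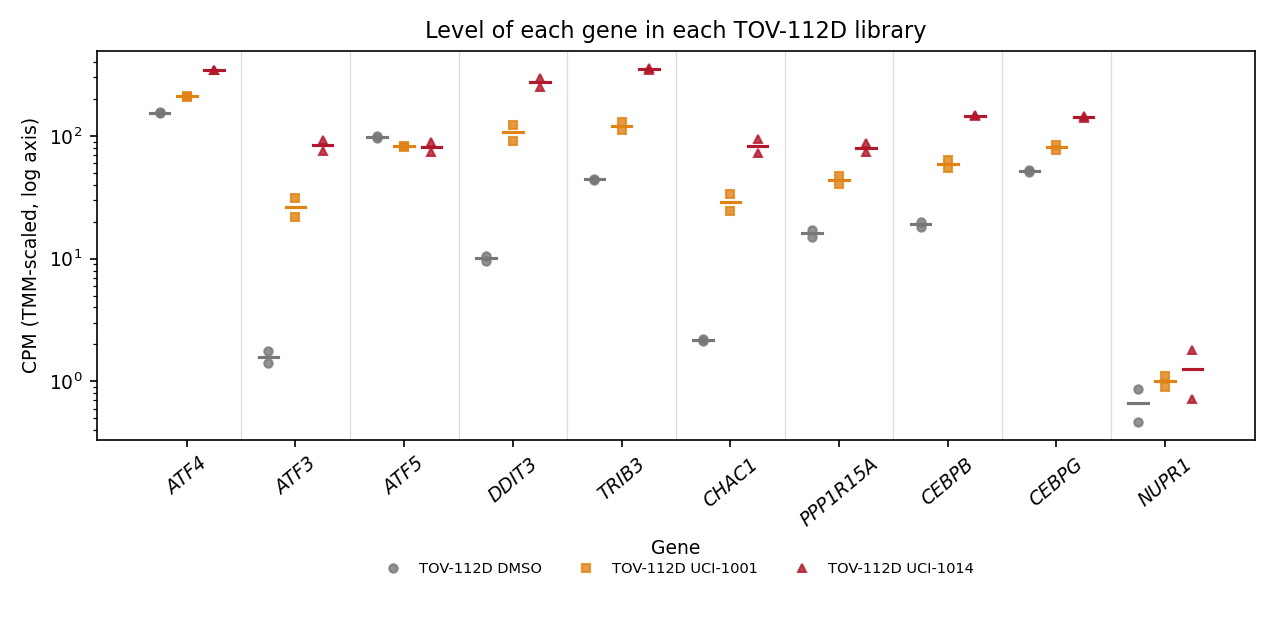
Level of the 10 regulators in each TOV-112D library, in CPM on a log axis, with points for libraries (2 per group) and bars for group means. For 8 genes the points step up from DMSO through UCI-1001 to UCI-1014 without overlap, whereas ATF5 does not rise and the NUPR1 points overlap.

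Among the C/EBP factors, CEBPB rose with both compounds and CEBPG rose less. CEBPB, a factor of inflammatory and metabolic programmes that can pair with ATF4, lay at 18.1 and 19.9 CPM with DMSO, 55.2 and 63.7 with UCI-1001 and 145 and 147 after UCI-1014. Its log2 fold change was 1.65 (SE 0.08, adjusted p = 4.3e-09) with UCI-1001 and 2.94 (SE 0.07, adjusted p = 4.0e-13) with UCI-1014. CEBPG, which can also pair with ATF4, lay at 50.8 and 53.3 CPM with DMSO, 77.0 and 84.7 with UCI-1001 and 146 and 140 after UCI-1014. These groups were separate too. The CEBPG log2 fold change was 0.64 (SE 0.06, adjusted p = 3.8e-06) with UCI-1001 and 1.46 (SE 0.06, adjusted p = 4.1e-11) with UCI-1014. CEBPB has a single transcript in the files, and an antisense gene, CEBPB-AS1, overlaps it. ATF5 is likewise overlapped by IL4I1 and NUP62 on the opposite strand, and by the microRNA gene MIR4751 on the same strand. Whether the quantification used strand is not given in the sources used here.

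The genes that feed back on the response also rose. TRIB3, a pseudokinase that binds ATF4 and dampens it, lay at 44.1 and 44.4 CPM with DMSO, 113 and 130 with UCI-1001 and 355 and 344 after UCI-1014. That corresponds to log2 fold changes of 1.46 (SE 0.06, adjusted p = 1.9e-09) and 2.98 (SE 0.06, adjusted p = 5.5e-14). PPP1R15A directs protein phosphatase 1 to eIF2 and so restores translation. It lay at 17.1 and 15.0 CPM with DMSO, 41.0 and 46.8 with UCI-1001 and 87.0 and 73.7 after UCI-1014. Its log2 fold change was 1.45 (SE 0.10, adjusted p = 2.8e-07) with UCI-1001 and 2.32 (SE 0.10, adjusted p = 1.2e-10) with UCI-1014. No treated library of either gene fell into the DMSO range.

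CHAC1, a gamma-glutamylcyclotransferase that degrades glutathione, was nearly silent with DMSO, at 2.11 and 2.22 CPM, or 41 counts in each library. It reached 24.5 and 33.6 CPM with UCI-1001 and 93.6 and 72.4 CPM after UCI-1014. The log2 fold changes were 3.74 (SE 0.22, adjusted p = 5.1e-08) and 5.25 (SE 0.20, adjusted p = 3.0e-11), at rank 19 and rank 23 of all genes. NUPR1, a small stress-induced chromatin cofactor, was barely detected. Its counts were 9 and 16 with DMSO, 18 and 22 with UCI-1001 and 30 and 14 after UCI-1014. The UCI-1014 range covered the UCI-1001 range and overlapped that of DMSO. NUPR1 gave log2 differences of 0.59 (95% interval -0.49 to 1.67, adjusted p = 0.496) and 0.89 (95% interval -0.17 to 1.95, adjusted p = 0.161). Without UCI-1014 replicate 2, the second was 1.44 at an adjusted p of 0.0399, so a change in NUPR1 was not settled at this depth.

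With UCI-1014, 8 of the 10 regulators were higher than with DMSO, and all 8 exceeded a log2 fold change of 1. Again ATF5 was lower and NUPR1 was not called. ATF3 rose 52.8-fold, CHAC1 38.1-fold and DDIT3 27.4-fold, while ATF4 rose 2.24-fold. The median log2 fold change was 2.63 over the 10 genes and -0.02 over all genes. Among all genes, 23.7% were higher and 23.4% lower, and 4.51% were higher with a log2 fold change above 1. Both compounds were set against the same 2 DMSO libraries, so these comparisons are not independent of each other.

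UCI-1014 and UCI-1001 were compared directly at the shared time of 3 h, as the only pair of compounds. Of the 10 regulators, 8 were higher with UCI-1014 than with UCI-1001 and none was lower, where 17.1% of all genes were higher and 13.9% lower. The difference was largest for ATF3, at a log2 of 1.67 (SE 0.13, adjusted p = 2.3e-07), a 3.19-fold higher level. TRIB3 followed at 1.52 (SE 0.05), CHAC1 at 1.51 (SE 0.13), DDIT3 at 1.36 (SE 0.10) and CEBPB at 1.30 (SE 0.06). Smaller differences were found for PPP1R15A at 0.87 (SE 0.08), CEBPG at 0.82 (SE 0.05) and ATF4 at 0.72 (SE 0.04). The adjusted p of these 8 genes was at most 3.0e-06. ATF5 differed by -0.01 (95% interval -0.16 to 0.15, adjusted p = 0.951), with a sign that turned under another scaling. NUPR1 differed by 0.30 (95% interval -0.69 to 1.29, adjusted p = 0.675), an interval that leaves room for a difference of more than 1 in log2. Because the doses are not known to match, potency and dose cannot be told apart in these differences.

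**Figure D2:**
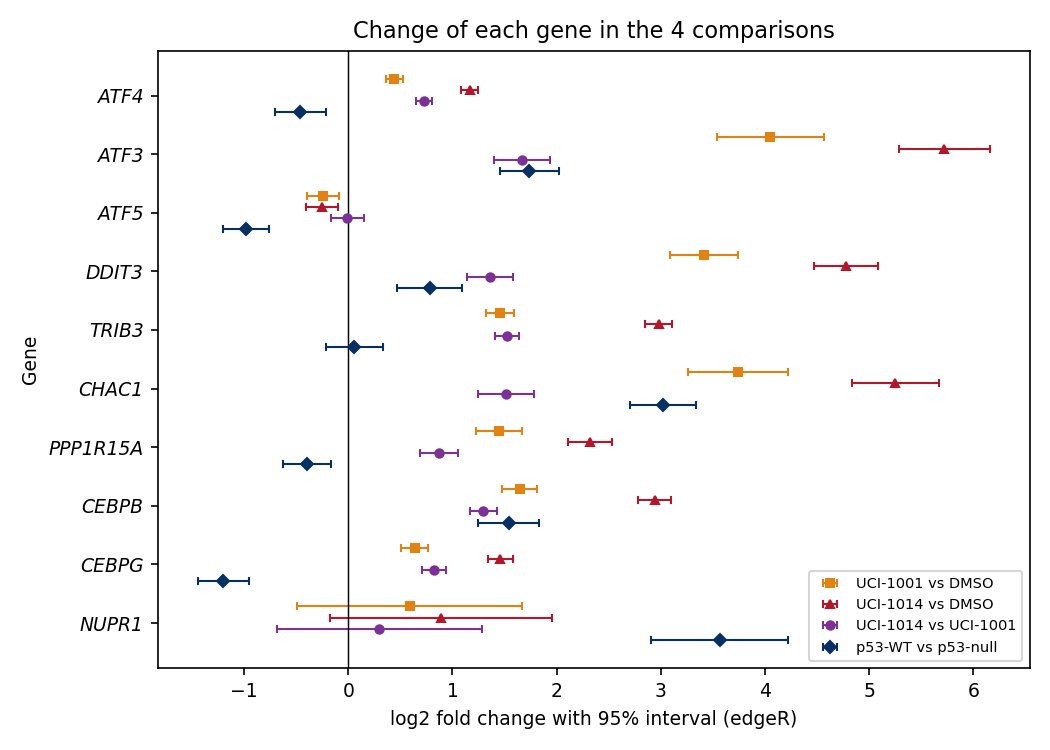
Log2 fold change of each regulator in the 4 comparisons, with points for edgeR estimates and bars for 95% intervals. ATF3, CHAC1 and DDIT3 lie farthest to the right for both compounds against DMSO, and in the p53-WT comparison ATF4, ATF5, CEBPG and PPP1R15A lie left of 0 while NUPR1 and CHAC1 lie farthest right.

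Genes downstream of the regulators were examined through lists named by function. Of 31 tested ATF4 target genes, 21 were higher with UCI-1001 and none was lower, and the list median was 0.41 in log2, where 9.39% of all genes were higher and 6.36% lower. With UCI-1014, 29 were higher and none lower, with a median of 1.07, where 23.7% of all genes were higher and 23.4% lower. SESN2, a sestrin that restrains mTORC1, changed most, by 2.01 (SE 0.12, adjusted p = 4.7e-08) with UCI-1001 and 4.31 (SE 0.11, adjusted p = 3.4e-13) with UCI-1014. Its level was 13.2 to 16.6 CPM with DMSO, 53.4 to 67.2 with UCI-1001 and 280 to 313 with UCI-1014. DDIT4, another inhibitor of mTORC1, rose by 1.27 and 2.31 on the log2 scale, and the secreted glycoprotein gene STC2 by 1.24 and 2.59. CTH, an enzyme of cysteine synthesis, rose by 0.85 with UCI-1001 (adjusted p = 0.0299). In the direct comparison 25 of the 31 were higher with UCI-1014 and none lower, beside 17.1% and 13.9% of all genes. Among the 25 were VLDLR, a lipoprotein receptor, at 1.60 and ASNS, asparagine synthetase, at 1.38 on the log2 scale. GDF15, a stress-induced cytokine, was at 0.162 to 0.258 CPM with DMSO and 1.38 to 1.91 CPM with UCI-1014, or 2.92 on the log2 scale (SE 0.49, adjusted p = 1.9e-04), and its DMSO level lay near that of 3 counts. SESN2, DDIT4 and GDF15 are also p53 target genes. Their induction through ATF4 and through p53 cannot be told apart in these counts.

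Of 7 CHOP target genes, 3 rose with UCI-1001, 6 rose with UCI-1014, and none was lower, where 9.39% and 23.7% of all genes were higher. PMAIP1, which encodes the BH3-only protein NOXA, rose by 1.19 and 1.95 on the log2 scale, and the growth arrest gene GADD45A by 0.77 and 1.92. BBC3, which encodes the BH3-only protein PUMA, lay at 2.94 to 3.30 CPM with DMSO, 2.26 to 3.22 with UCI-1001 and 6.75 to 7.17 with UCI-1014, and was called for UCI-1014, at 1.16 (SE 0.20, adjusted p = 2.5e-04). TNFRSF10B, the death receptor DR5, rose by 0.25 and 1.14. Several of these, including PMAIP1, BBC3, GADD45A and TNFRSF10B, are also p53 target genes. The p53 target CDKN1A rose as well, by 1.65 (adjusted p = 3.9e-08) and 3.54 (adjusted p = 2.5e-13), so induction through CHOP and through p53 cannot be told apart in these counts.

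Upstream, of the 22 genes for eIF2 kinases and machinery, 3 were higher with UCI-1001, 1 was lower and 18 were not called, beside 9.39% higher and 6.36% lower among all genes. With UCI-1014, 8 were higher, 6 lower and 8 not called, beside 23.7% and 23.4% of all genes, and the median log2 fold change was 0.01 in both comparisons. EIF2AK3, the kinase PERK, rose by 0.39 (SE 0.08, adjusted p = 0.0060) and 1.00 (SE 0.08, adjusted p = 1.6e-07). EIF2S2, the beta subunit of eIF2, rose by 0.27 and 0.73, and PPP1R15B, the constitutive counterpart of PPP1R15A, by 0.21 and 0.72. GCN1, an activator of the kinase GCN2, fell by 0.21 and 0.58 on the log2 scale. These changes are of RNA levels and do not report kinase activity.

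Of 16 tested bZIP relatives and paralogs, 4 were higher with UCI-1001 and none lower, and 9 were higher and 1 lower with UCI-1014. Among all genes, 9.39% were higher and 6.36% lower with UCI-1001, and 23.7% and 23.4% with UCI-1014. TRIB1, a paralog of TRIB3, rose by 1.43 (SE 0.12, adjusted p = 2.1e-06) and 3.09 (SE 0.11, adjusted p = 1.8e-11). JDP2, a bZIP repressor related to ATF3, rose by 0.55 and 1.31, and CREM by 0.50 and 1.10. The ATF6 and XBP1 arm of the unfolded protein response had 3 of 17 genes higher and none lower with UCI-1001, and 6 higher and 4 lower with UCI-1014, counts that are read against the same shares. Within it HERPUD1, a factor of endoplasmic reticulum associated degradation, rose by 1.29 and 2.15, XBP1 by 0.74 and 1.48, and the sensor kinase ERN1 by 0.32 and 0.79. The chaperone cofactor DNAJB9 rose by 0.99 with UCI-1014. The median of this list was 0.00 with UCI-1001 and 0.03 after UCI-1014.

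**Figure D3:**
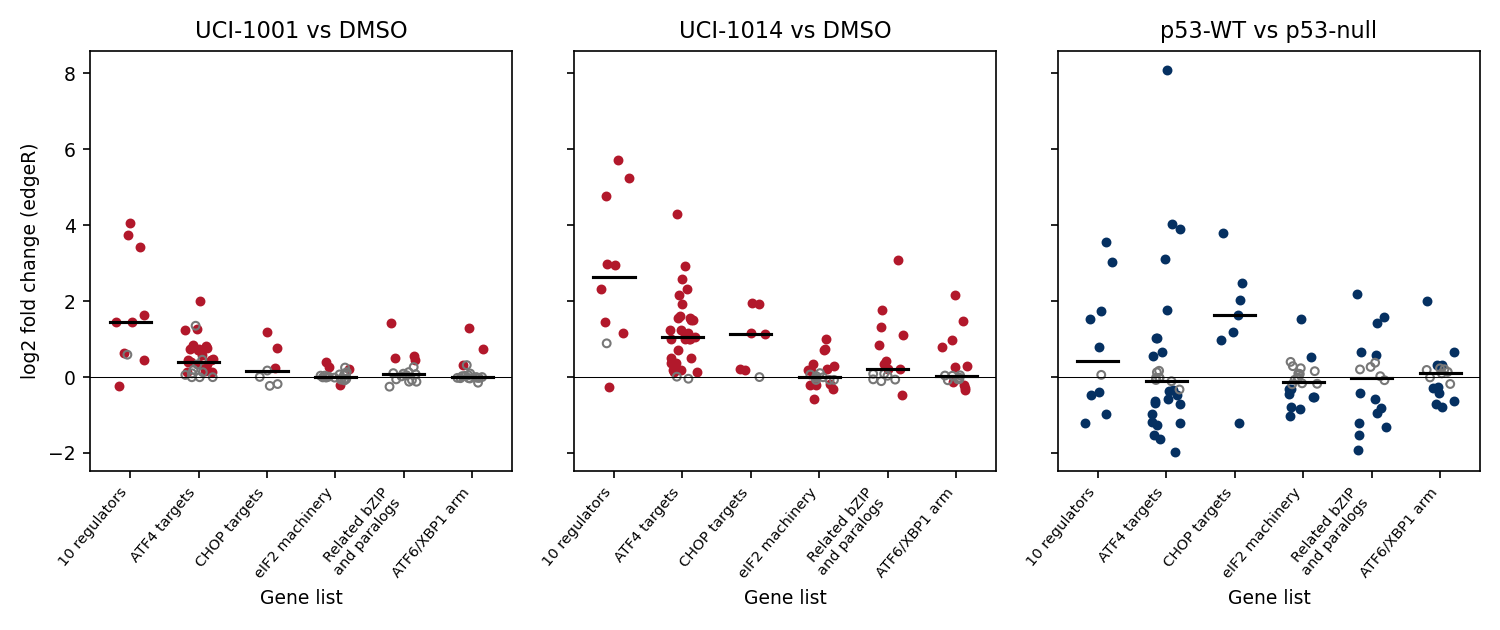
Log2 fold change of each tested gene of 6 lists in 3 comparisons, with filled points for genes at an adjusted p under 0.05, open points for the others and bars for list medians. With UCI-1014 the medians of the regulators, the ATF4 targets and the CHOP targets lie at 2.63, 1.07 and 1.14, and the p53-WT comparison spreads ATF4 targets to both sides of 0.

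The Saos-2 libraries compared cells labelled p53-WT with cells labelled p53-null. In this pair, wild-type p53 and other differences between the lines cannot be told apart. Of the 10 regulators, 5 were higher in p53-WT than in p53-null cells, 4 were lower and TRIB3 was not called. NUPR1 and CHAC1 led, at 11.8-fold and 8.13-fold, followed by ATF3 at 3.33-fold and CEBPB at 2.91-fold. ATF4, ATF5, CEBPG and PPP1R15A were lower. This comparison moved much of the transcriptome, with 33.5% of 14275 genes higher and 33.0% lower, and 17.9% higher with a log2 fold change above 1, as were 4 of the 10 regulators. The median log2 fold change was 0.42 over the regulators and -0.01 over all genes.

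NUPR1 had 7, 6 and 8 counts in the p53-null libraries and 111, 70 and 71 in the p53-WT libraries, or 3.56 on the log2 scale (SE 0.30, adjusted p = 1.2e-06). The ranges were far apart, although the levels stayed low at 3.13 to 4.92 CPM with p53-WT. All estimated NUPR1 counts of p53-null cells fell on the long transcript NUPR1-201 of 5491 bases, while the short NUPR1-202 of 550 bases held 5.30 to 36.7 estimated counts in the p53-WT libraries and 0 in the p53-null ones. A lncRNA, ENSG00000289754, overlaps NUPR1 on the same strand. CHAC1 lay at 5.07, 4.60 and 4.38 CPM in p53-null and at 43.6, 33.3 and 37.4 CPM in p53-WT cells, which is 3.02 on the log2 scale (SE 0.14, adjusted p = 1.4e-08).

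ATF3 lay at 11.4, 10.9 and 10.8 CPM in p53-null and 40.3, 38.9 and 31.1 CPM in p53-WT cells, at a log2 difference of 1.74 (SE 0.13, adjusted p = 4.7e-07). CEBPB lay at 8.25, 10.9 and 10.4 against 26.5, 30.4 and 29.2 CPM, at 1.54 (SE 0.13, adjusted p = 1.7e-06). DDIT3 changed less, from 30.4, 25.6 and 26.5 to 56.8, 44.8 and 40.1 CPM, at 0.78 (SE 0.14, adjusted p = 5.2e-04). In these 3 genes every p53-WT library exceeded every p53-null library. Replicate 1 was the highest within each line for ATF3 and DDIT3, as it was for CHAC1 and ATF4.

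ATF4 was lower with p53-WT, at 266, 252 and 244 CPM in p53-null and 210, 173 and 170 CPM in p53-WT cells, at a log2 difference of -0.46 (SE 0.11, adjusted p = 0.0037). ATF5 went from 51.8, 56.2 and 54.7 to 27.7, 27.7 and 27.1 CPM, at -0.98 (SE 0.10, adjusted p = 5.9e-06). CEBPG went from 82.4, 83.0 and 83.1 to 31.6, 38.6 and 37.9 CPM, at -1.20 (SE 0.11, adjusted p = 2.9e-06). The groups did not overlap for any of these. PPP1R15A lay at 54.7, 63.8 and 63.0 against 46.0, 47.2 and 44.7 CPM, at -0.40 (SE 0.11, adjusted p = 0.0063). TRIB3 overlapped, at 28.5, 31.1 and 27.3 against 35.0, 28.4 and 27.0 CPM, at 0.06 (95% interval -0.22 to 0.33, adjusted p = 0.703). Without replicate 1 of both lines the same test called 9 of the 10 regulators, beside 10681 of all 14386 genes tested. TRIB3 then stood at -0.07.

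**Figure D4:**
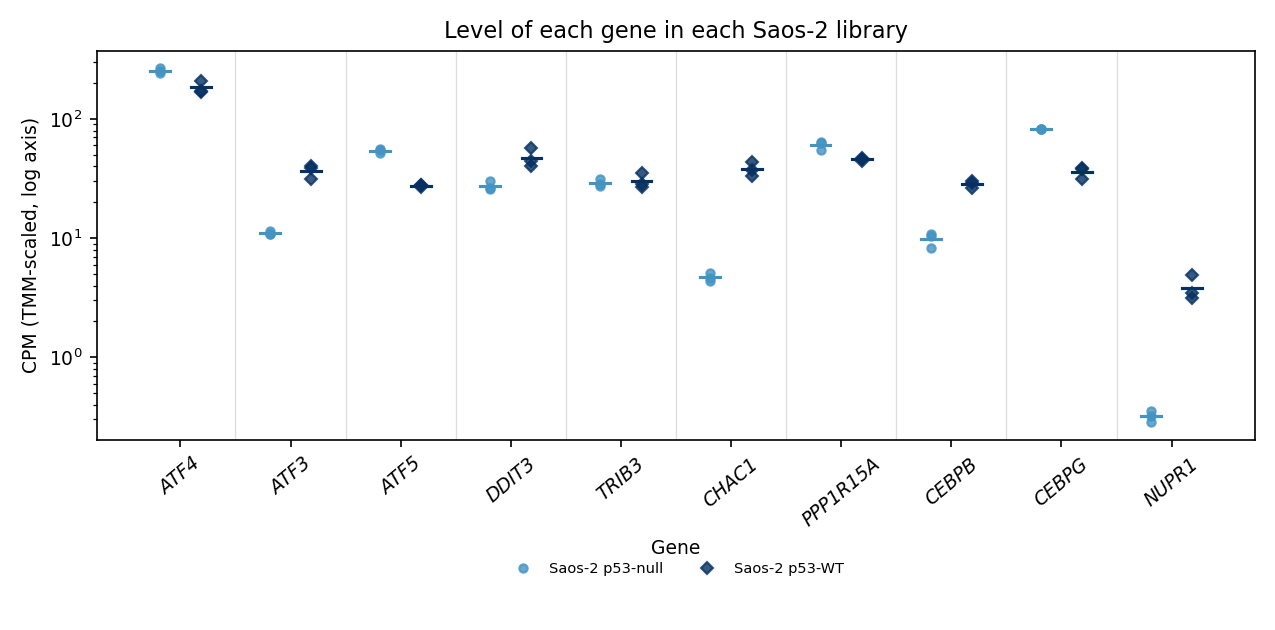
Level of the 10 regulators in each Saos-2 library, in CPM on a log axis, with points for libraries (3 per group) and bars for group means. NUPR1, CHAC1, ATF3, CEBPB and DDIT3 are higher in p53-WT without overlap, ATF4, ATF5, CEBPG and PPP1R15A lower without overlap, and the TRIB3 ranges overlap.

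Of the 31 tested ATF4 targets, 9 were higher and 14 lower with p53-WT, and the list median was -0.11 in log2. These counts and those of the other lists that follow stand beside 33.5% of all genes higher and 33.0% lower. The largest changes were those of GDF15, at 8.09 (SE 0.19, adjusted p = 3.3e-10), ALDH1L2, a mitochondrial folate enzyme, at 4.04, DDIT4 at 3.91 and SESN2 at 3.11. GDF15, DDIT4 and SESN2 are known p53 targets as well. Of the 7 CHOP targets, 6 were higher and 1 lower, led by BBC3 at 3.80, BCL2L11 (BIM) at 2.48 and TNFRSF10B at 2.04. Of the 22 eIF2 genes, 2 were higher and 8 lower, with EIF2AK4, the kinase GCN2, at 1.54 and EIF2S1, the eIF2 alpha subunit, at -1.03. Among 18 tested bZIP relatives and paralogs, 5 were higher and 8 lower, including NUPR2 at 2.20 and CHAC2 at -1.91. The ATF6 and XBP1 list had 4 of 17 higher, with EDEM1 at 2.02, and 6 lower, with HSP90B1 at -0.79. Markers moved too. Summed osteoblast markers were 26.2 to 27.6 CPM in p53-null and 42.1 to 50.5 in p53-WT cells. Summed epithelial markers were 708 to 769 and 840 to 1086 CPM. The genes within a sum did not move together. SPP1 changed by 1.40 on the log2 scale, whereas RUNX2 changed by -0.96 and COL1A1 by -1.73. KRT8 changed by 1.28 and PAX8 by 0.95, while KRT18, at -0.25, was not called. The part of these markers in the results was not tested.

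Levels per transcript length, as TPM (transcripts scaled to a fixed total per library), allowed the genes to be ranked within a condition. With DMSO, ATF4 was the most abundant of the 10 at 194 TPM, followed by ATF5 at 85.0 and TRIB3 at 32.5, while CHAC1 was at 2.86, ATF3 at 2.37 and NUPR1 at 0.375 TPM. With UCI-1001, DDIT3 reached 248 ± 56.0 TPM (SD, n = 2), next to ATF4 at 269 ± 3.99 TPM (SD, n = 2), and their ranges overlapped. With UCI-1014, DDIT3 at 618 ± 83.7 TPM (SD, n = 2) exceeded ATF4 at 434 ± 7.26 TPM (SD, n = 2) in both libraries. In Saos-2 cells ATF4 stayed first, at 280 TPM without p53 and 174 TPM with it, and DDIT3 second, at 52.5 and 76.4 TPM. NUPR1 was the lowest of the 10 in every group.

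Across the 5 conditions, DDIT3 TPM rose in the order TOV-112D with DMSO, p53-null, p53-WT, UCI-1001 and UCI-1014, with no overlap between neighbours. For 8 of the genes, all but ATF5 and NUPR1, the UCI-1014 libraries held the highest TPM and did not overlap with the next group. ATF5 was highest with DMSO at 85.0 TPM and lowest in p53-WT cells at 18.5 TPM. NUPR1 was highest in p53-WT cells at 4.50 TPM and lowest in p53-null cells at 0.0869 TPM, a wider gap than its 11.8-fold change in counts. NUPR1 TPM also depends on which transcript its few reads were assigned to. With DMSO, 9 and 16 counts stood at 0.501 and 0.250 TPM. Some neighbours in these orders overlapped, among them ATF3 with UCI-1001 at 23.7 TPM and with p53-WT at 29.2 TPM, and CHAC1 with p53-WT at 32.4 TPM and with UCI-1001 at 37.5 TPM. Levels of the same gene in TOV-112D and Saos-2 are side by side here without a test, since line and condition cannot be told apart.

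**Figure D5:**
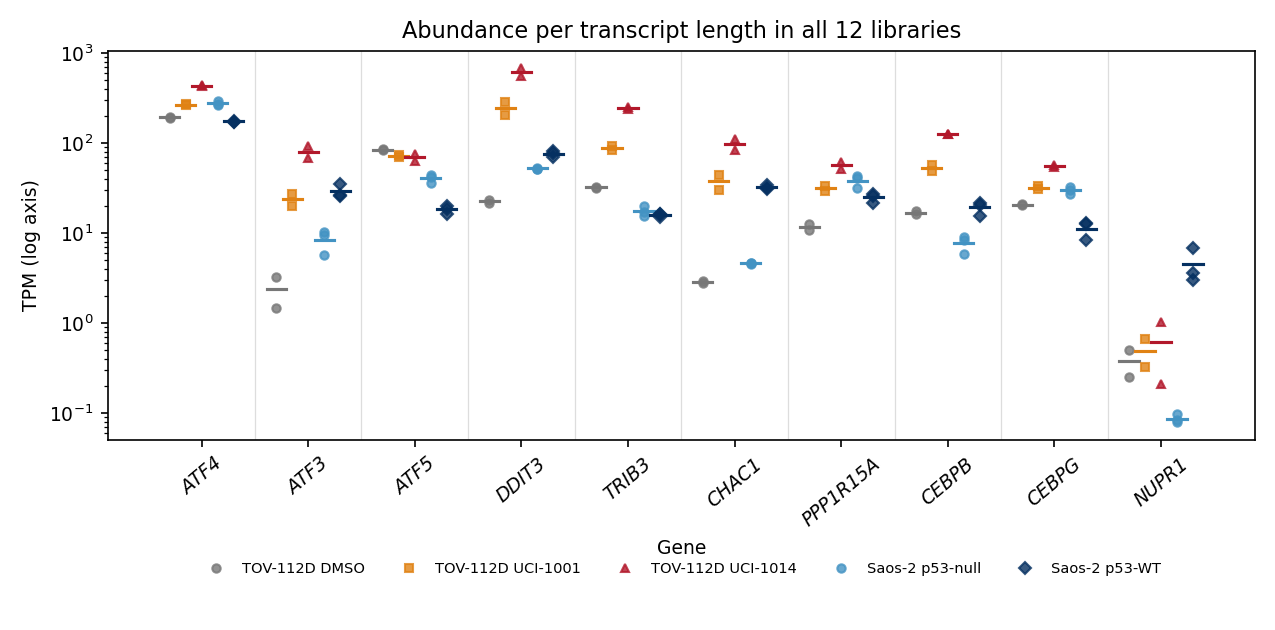
Abundance of the 10 regulators in all 12 libraries, in TPM on a log axis, with points for libraries and bars for group means (2 libraries per TOV-112D group, 3 per Saos-2 group). DDIT3 spans 22.7 TPM with DMSO to 618 TPM with UCI-1014, whereas ATF4 spans 174 to 434 TPM across the groups.

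The transcripts behind these levels were followed through the shares of estimated counts. ATF3-202 held 72.0% of ATF3 counts with DMSO, where the libraries gave 50.8 and 93.3% on few counts, and 96.1% with UCI-1001. CHAC1-203 held 87.0% of CHAC1 counts with DMSO and 99.1% in p53-WT cells, and NUPR1-201 held 91.0% and 67.6% of NUPR1 counts. ATF5-201 held 94.9 to 98.0% of ATF5 counts in all groups. For DDIT3, the main transcript DDIT3-201 held 68.1% with DMSO, 72.5% with UCI-1001 and 72.7% after UCI-1014. For CEBPG, the shorter CEBPG-202 held 13.9% with DMSO and 42.4% in p53-null cells, where single libraries ranged from 33.3 to 52.4%. These shares are kallisto estimates without a test. Shares and TPM sums cover only the transcripts that the GENCODE 44 annotation assigns to each gene, and any other deposited transcript was left out. Sums over the retained transcripts matched the deposited gene count to within 1 count for 8 of the 10 genes. ATF3 and CHAC1 differed by up to 73.3 and 18.5 counts in a library. The TPM values and shares of these 2 genes therefore do not rest on quite the same reads as their deposited counts. The gap was largest for ATF3 in p53-null replicate 1, where the retained transcripts held 73.3 fewer than the 248 deposited counts, and the p53-null ATF3 TPM is lower for it.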

How the data were processed

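RNA-seq libraries of TOV-112D (DMSO, UCI-1001, UCI-1014) and Saos-2 (p53-null, p53-WT) were grouped by their labels. The authors used kallisto v0.48.0 with GRCh38 and deposited estimated counts and TPM per transcript, and a table of gene counts in which estimated counts of each Ensembl gene were added and made integers. Stranded counting and the transcriptome release are not given in the sources used here. Gene annotation and promoter starts were taken from GENCODE 44. Here the deposited counts were summed by symbol, filtered with filterByExpr (minimum count 10), scaled by TMM and tested per line with edgeR 4.0.16 (quasi-likelihood, R 4.3.3). No replicate term was used, since pairing of samples by replicate number was not established. A gene was called at a Benjamini-Hochberg adjusted p under 0.05 over all genes of the fit, and the p-values measure the spread between these libraries, which may be technical. No 2 libraries were alike within sampling noise. DESeq2 1.42.0, RLE scaling, no filter, rows per identifier, a joint fit, a replicate block and leaving out libraries were alternatives. Fits were tested on simulated data. TPM values were summed per gene over its GENCODE 44 transcripts and not tested. All 10 regulators are named, and from each list at most 4 called genes with the largest changes per comparison, plus genes whose CPM tracked ATF4 or DDIT3. BBC3 and GDF15 levels are also given where they fell outside that rule. The genes and lists were chosen with earlier results of these data known. In the ATF4 list, 5 synthetases were matched by older symbols. A further check gene is not reported here.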

Additional observations from a re-analysis of the deposited data

How the results depend on the processing

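The number of regulators called stayed within 1.5 times of 9, 9, 8 and 9 in the UCI-1001, UCI-1014, UCI-1014 against UCI-1001 and p53-WT comparisons under each alternative run, with 7 to 9, 8 to 10, 8 and 9 called. The sign turned for 3 uncalled differences. For UCI-1014 against UCI-1001, ATF5 went from -0.01 to 0.000708 with RLE scaling and from -0.152 to 0.138 with 1 library left out, and NUPR1 from 0.30 to between -0.46 and 0.85. For p53-WT, TRIB3 ranged from -0.065 to 0.134 with 1 library left out and was -0.070 without replicate 1 of both lines. The cause was not tested. ATF5 lost its call for UCI-1001 with DESeq2 (adjusted p = 0.0506), per identifier (0.0622) and in the joint fit (0.278). The number of all genes called for UCI-1001, 2232, fell to 1284 with DESeq2, to 308 in the joint fit of both lines, and to 952 and 1020 without DMSO replicate 1 or 2 and 1188 without UCI-1001 replicate 2. For UCI-1014 it went from 6677 to 3421 in the joint fit, and for the direct comparison from 4406 to 2891 with DESeq2 and 937 in the joint fit. Same-numbered libraries deviated together at r of 0.063, -0.030 and -0.164 in TOV-112D and 0.139, 0.092 and 0.075 in Saos-2, and the numbers were not taken as pairs. Differently numbered libraries of the 2 Saos-2 groups gave r from -0.184 to 0.132, so pairing in that line was not settled. With the replicate number as a block, 9, 9, 8 and 9 regulators were called. Beside them stood 1774, 6307 and 3882 of all 14177 genes in the TOV-112D comparisons. For p53-WT the block called 9814 of all 14275 genes, and the main fit 9489. With UCI-1001 and UCI-1014 numbers crossed, an alternative added after seeing the data, 8 were called, beside 4979 of 14177 genes. With 2 libraries a group and NUPR1 at 9 to 30 counts, depth limits NUPR1 most in TOV-112D.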

Other observations

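The genes whose levels most resembled those of ATF4 over the 12 libraries, by Pearson correlation of log2 CPM among 13240 genes, were HSPE1 (r = 0.979), a mitochondrial co-chaperonin, GET4 (0.977), of tail-anchored protein insertion, GOT1 (0.965), an aspartate aminotransferase, ASNS (0.962) and BRF2 (0.960), a factor of RNA polymerase III. For DDIT3 they were RBM23 (0.974), BAG3 (0.969), a co-chaperone of HSP70, MXD1 (0.966), a MYC network repressor, HMOX1 (0.963), heme oxygenase 1, and XBP1 (0.958). These values describe libraries that share 2 lines and 5 conditions, carry no test and say nothing of shared control.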
